A study of Mus musculus with 4 samples.

Results

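The Bcl2 family decides whether a cell keeps its mitochondria intact or starts apoptosis, and 10 of its genes were examined in stem and progenitor cells of mouse bone marrow: the pro-survival genes Bcl2, Bcl2l1 and Mcl1 and the pro-death genes Bcl2l11, Bax, Bak1, Bbc3, Pmaip1, Bid and Bad. A probe set, the group of short probes that reports a transcript on these Affymetrix arrays, was taken for a member when the platform annotation gave it that symbol alone. This found 29 probe sets of 45101 for 9 of the 10 members, 3 pro-survival and 6 pro-death. No probe set carried the symbol Bax, which is not analysed here. The value of a gene is that of its probe set with the highest mean log2 intensity over the 4 arrays, as for all 18193 genes tested, and the other probe sets are given beside it.

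The cells were lineage-negative, cKit+, Sca1+ (LSK) bone marrow cells, which include hematopoietic stem cells and early multipotent progenitors. Ncstn KO mice were Ncstn flox/flox Mx1-cre+ and lacked nicastrin, a subunit of the gamma-secretase that cleaves Notch receptors, wherever the interferon-inducible Mx1-cre transgene had acted. WT mice were Ncstn flox/flox littermates without the transgene. All mice were given polyIC, which induces interferon, 3 times at 20 µg per g from 14 days of age, and were analysed 4 weeks later at 6 weeks of age. Ncstn KO replicate 1 and WT replicate 2 were female, and Ncstn KO replicate 2 and WT replicate 1 were male, so that each genotype had 2 arrays. A two-sided permutation test of 1 gene, enumerated exactly, has 0.333 as its smallest possible p in this design, so the tests below are those of a limma model fitted over all genes.

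The proteins of the family meet at the outer membrane of the mitochondrion. Bak1 and Bax open pores in it, the pro-survival proteins bind and hold them in check, and a set of small proteins that share only the BH3 helix with the rest of the family releases that hold. In blood-forming stem cells Mcl1 is a survival factor that cannot be spared, and Bcl2 and Bcl2l1 act later or beside it in lymphoid and erythroid cells.

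Promoter sequence is shown for 4 members from RefSeq (GRCm38.p6), as the 250 bases before an annotated transcription start, 5′ to 3′ on the gene's strand. Mcl1 (chr3:95658471-95658720, plus strand) and Bak1 (chr17:27028628-27028877, minus strand) are shown because they differed in opposite directions between the arrays of female and male mice described further on. Bcl2l11 (chr2:128125788-128126037, plus strand) and Bbc3 (chr7:16310011-16310260, plus strand) are shown because these windows held the FOXO motif GTAAACA, in capitals, on either strand.
Mcl1: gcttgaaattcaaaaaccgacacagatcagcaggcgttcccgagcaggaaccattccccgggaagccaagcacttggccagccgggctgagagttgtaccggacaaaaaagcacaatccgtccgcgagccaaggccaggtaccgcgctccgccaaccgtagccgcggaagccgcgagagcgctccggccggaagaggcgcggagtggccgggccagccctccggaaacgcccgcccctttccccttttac
Bak1: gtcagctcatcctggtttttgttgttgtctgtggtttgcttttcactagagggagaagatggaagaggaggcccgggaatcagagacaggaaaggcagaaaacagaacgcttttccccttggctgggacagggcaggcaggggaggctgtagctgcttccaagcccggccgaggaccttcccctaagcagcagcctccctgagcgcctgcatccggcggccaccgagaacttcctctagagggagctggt
Bcl2l11: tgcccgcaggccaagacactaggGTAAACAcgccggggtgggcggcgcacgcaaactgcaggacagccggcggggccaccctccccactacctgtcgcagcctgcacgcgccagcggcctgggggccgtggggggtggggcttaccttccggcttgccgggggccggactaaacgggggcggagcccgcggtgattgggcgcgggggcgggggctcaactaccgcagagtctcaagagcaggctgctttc
Bbc3: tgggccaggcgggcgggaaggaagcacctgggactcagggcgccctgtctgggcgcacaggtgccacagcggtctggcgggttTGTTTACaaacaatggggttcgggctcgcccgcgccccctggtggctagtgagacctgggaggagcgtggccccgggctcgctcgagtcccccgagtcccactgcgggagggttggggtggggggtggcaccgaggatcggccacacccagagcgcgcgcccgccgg
The motif began 227 bases before the Bcl2l11 start and, on the other strand, 167 bases before the Bbc3 start. FOXO factors are known activators of both genes. Among all 32851 promoter windows of this length 3.17% held the motif, against 2 of the 15 windows listed for the members. The RBPJ core TGGGAA, bound by the factor through which Notch acts, was in 3 of 15 member windows, 1 of Bax and the others of Bad, against 21.6% of all windows. The p53 half-site was in 1 of 15, that of Bax, against 7.13%. Both strands were searched, and no match overlapped a match to another of these motifs in the windows printed.

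The targeted gene was examined first. Ncstn had intensities of 191 and 240 on Ncstn KO replicates 1 and 2, against 530 and 505 on WT replicates 1 and 2, a log2 change of -1.27 (SE 0.22) with a limma adjusted p of 0.257. The mean of its 2 probe sets gave -0.80 (limma adjusted p = 0.696). All 6 measured markers of LSK cells, Kit and Cd34 among them, lay above the median level of all genes. Below it lay 5 of 7 measured T and NK cell markers and 4 of 8 B cell markers. Only 2 of 11 markers of mature neutrophils and monocytes and 0 of 8 of granulocyte-macrophage progenitors lay below it. The purity of the sorted cells was not tested. Ly6a, which encodes Sca1, had no probe set of that name. The median intensity over all probe sets was between 71.6 and 79.2 on the 4 arrays.

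No member of the family passed the test between Ncstn KO and WT. Of the 9 measured members 0 had a limma adjusted p under 0.05, and 0 had an unadjusted p under 0.05, beside 0 and 1237 of all 18193 genes (0% and 6.80%). Of the 3 pro-survival genes 3 were above WT, by a median log2 change of 0.057, and of the 6 pro-death genes 5 were above and 1 below, by a median of 0.095. The median over all genes was 0.025, and 55.8% of genes were above WT. Both Ncstn KO arrays lay above both WT arrays for 2 members, Pmaip1 and Bad, where 21.3% of all genes showed this, and below them for 0, where 12.8% did. Scaling the arrays to the hybridization controls, which were brighter in Ncstn KO by 0.195, moved the median of all genes to -0.17, that of the pro-survival members to -0.14 and that of the pro-death members to -0.10. In log2, Ncstn KO replicate 2 stood at 8.53 against 8.51 on WT replicate 2 for Pmaip1, and at 10.57 against 10.53 for Bad. The hybridization controls averaged 12.21 and 12.03 on these arrays, so after that scaling the genotypes overlap for both genes.

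**Figure D1:**
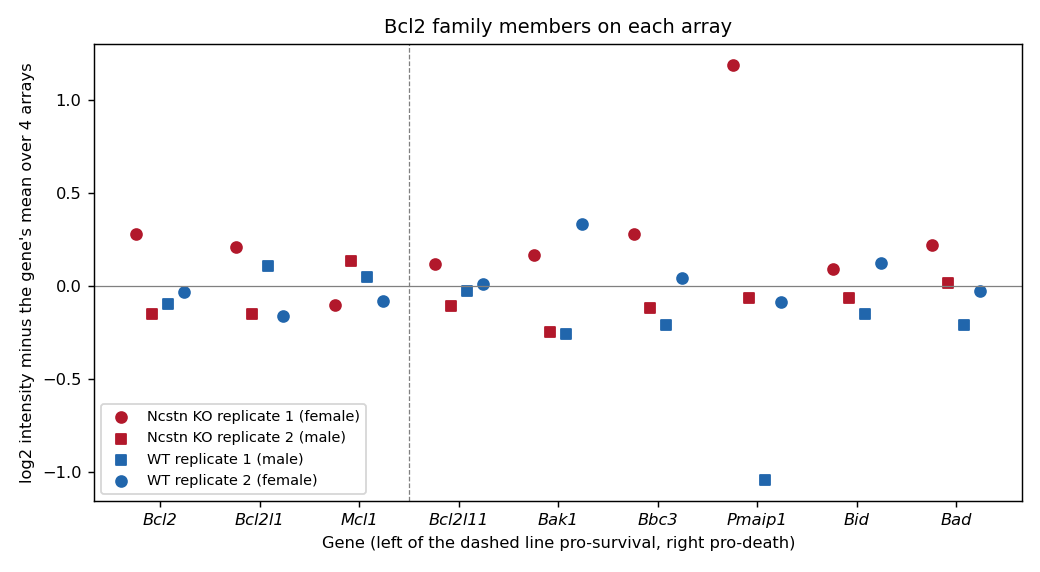
Log2 intensity of each measured member on each of the 4 arrays, after subtraction of the gene's own mean, with Ncstn KO in red, WT in blue, females as circles and males as squares. Pmaip1 spans by far the widest range among the 9 genes, and Ncstn KO replicate 1 is the highest array for 6 of them.

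Bcl2, the founding survival gene of the family, had intensities of 2334 and 1731 on Ncstn KO replicates 1 and 2, against 1794 and 1875 on WT replicates 1 and 2. The WT arrays lay between the Ncstn KO arrays, and the log2 change was 0.13 (SE 0.17, 95% confidence interval -0.27 to 0.54, limma adjusted p = 0.9746). Its 4 other probe sets disagreed in sign. Probe sets 1422938_at and 1437122_at gave -0.11 and -0.095, and 1440770_at gave 0.13. The dim probe set 1443837_x_at had intensities of 65.5 and 39.8 in Ncstn KO, against 29.7 and 27.3 in WT, a log2 change of 0.84 (SE 0.32). Its limma adjusted p was 0.959, and it was the 1 probe set of the 29 with an unadjusted p under 0.05, where 5.14% of all 45037 probe sets tested had such a p. The suffix x_at marks probe sets whose probes may also bind other transcripts.

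Bcl2l1 encodes Bcl-xL and, by alternative splicing, the shorter Bcl-xS, which favours death. Its intensities were 463 and 360 on Ncstn KO replicates 1 and 2, against 431 and 358 on WT replicates 1 and 2. The arrays of the groups interleaved, with a log2 change of 0.057 (SE 0.23, interval -0.50 to 0.61, limma adjusted p = 0.9996). All 4 probe sets were above WT, by 0.0064 to 0.31, and Ncstn KO replicate 1 was the highest array on each. Of all genes 55.8% were above WT and 38.6% were highest on that array. The 0.31 came from the dim 1426050_at, at 21 and 17 in Ncstn KO against 16 and 15 in WT. The other changes were at most 0.099. The sources used here do not say which of the 4 probe sets reports which splice form.

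Mcl1 encodes a short-lived pro-survival protein that Pmaip1 binds and helps to degrade. Its brightest probe set had intensities of 5555 and 6527 on Ncstn KO replicates 1 and 2, against 6159 and 5620 on WT replicates 1 and 2. The Ncstn KO arrays enclosed the WT arrays, and the log2 change was 0.033 (SE 0.10, interval -0.22 to 0.29, limma adjusted p = 0.997). This was the smallest standard error among the 9 members, and the interval ends well short of a 2-fold difference on either side. The 6 probe sets did not give 1 direction. Probe set 1416881_at had 1903 and 2326 in Ncstn KO, against 2680 and 2522 in WT, a log2 change of -0.31 (SE 0.13, limma adjusted p = 0.967) with the higher Ncstn KO array below the lower WT array, which 14.0% of all probe sets showed. Probe set 1448503_at gave -0.24 (SE 0.19), and the other 3 gave between -0.018 and 0.0026. Ncstn KO replicate 1 was the lowest array on 6 of 6 Mcl1 probe sets, which share the transcripts of 1 gene and are not independent. Counted by gene, with 1 probe set each, that array was the lowest for 16.3% of all genes. The same array was the highest for 6 of the 9 members, as for 38.6% of all genes.

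**Figure D2:**
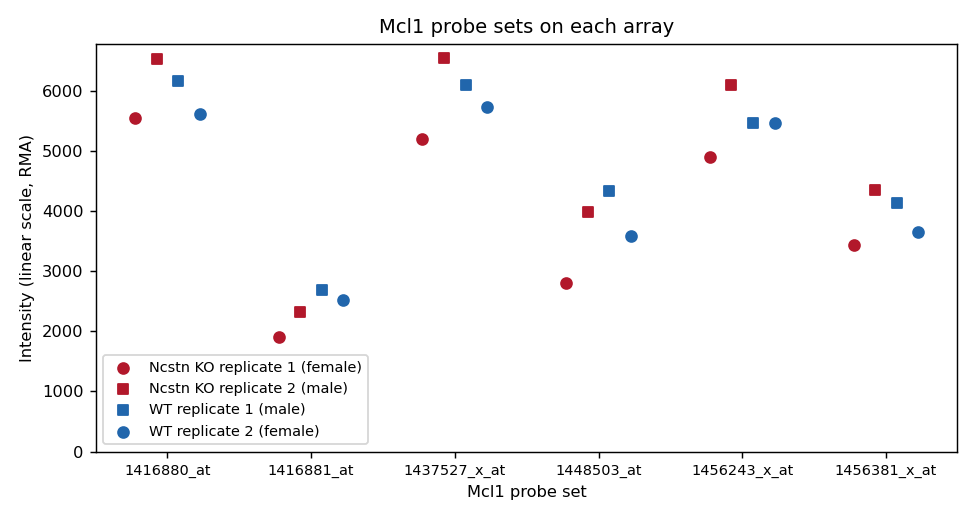
Intensity of the 6 Mcl1 probe sets on each array, on a linear scale starting at 0, with Ncstn KO in red, WT in blue, females as circles and males as squares. The circle of Ncstn KO replicate 1 is the lowest point of each probe set, and on 1416881_at the WT arrays are the 2 highest.

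Among the pro-death genes the effector Bak1, which forms pores in the mitochondrial membrane, had intensities of 1238 and 926 on Ncstn KO replicates 1 and 2, against 921 and 1387 on WT replicates 1 and 2. The WT arrays enclosed the Ncstn KO arrays, with a log2 change of -0.078 (SE 0.25, interval -0.68 to 0.53, limma adjusted p = 0.998). The second Bak1 probe set, 1425716_s_at, gave 0.025 (SE 0.41).

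Bcl2l11 encodes Bim, a BH3-only protein that binds all pro-survival members and limits the number of lymphoid and myeloid cells. Its intensities were 2061 and 1763 on Ncstn KO replicates 1 and 2, against 1858 and 1913 on WT replicates 1 and 2, and the log2 change was 0.016 (SE 0.13, interval -0.30 to 0.33, limma adjusted p = 0.9996). Its 4 other probe sets ran from -0.21 to 0.33. On 1456005_a_at both Ncstn KO arrays, at 1094 and 1130, lay above both WT arrays, at 1030 and 828 (log2 change 0.27, SE 0.17), as on 18.5% of all probe sets. The brightest probe set showed no such separation.

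Bid links death receptors to the mitochondrion after cleavage by caspase 8, and Bad is held inactive by phosphorylation when growth factors signal. Bid had intensities of 2454 and 2200 on Ncstn KO replicates 1 and 2, against 2073 and 2510 on WT replicates 1 and 2, a log2 change of 0.027 (SE 0.14, interval -0.31 to 0.36, limma adjusted p = 0.9996). The other Bid probe sets gave -0.047 and -0.11. Bad had 1754 and 1521 on Ncstn KO replicates 1 and 2, against 1301 and 1476 on WT replicates 1 and 2, so that the lower Ncstn KO array stood just above the higher WT array. The log2 change of Bad was 0.24 (SE 0.14, interval -0.12 to 0.59, limma adjusted p = 0.886). On its second probe set the groups overlapped, at 965 and 849 in Ncstn KO against 717 and 909 in WT (0.16, SE 0.19).

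Bbc3 and Pmaip1 encode Puma and Noxa, BH3-only proteins whose genes p53 activates after DNA damage. Bbc3 was dim, below the median level of all genes, with intensities of 225 and 170 on Ncstn KO replicates 1 and 2, against 160 and 190 on WT replicates 1 and 2. The groups overlapped and the log2 change was 0.16 (SE 0.26, interval -0.47 to 0.79, limma adjusted p = 0.986).

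Pmaip1 had the largest difference of the 9 members and the widest spread between mice. Its single probe set had intensities of 882 and 370 on Ncstn KO replicates 1 and 2, against 187 and 364 on WT replicates 1 and 2. Ncstn KO replicate 2 and WT replicate 2 were nearly level, while Ncstn KO replicate 1 was high and WT replicate 1 low. Mean log2 intensity was 9.16 ± 0.89 in Ncstn KO and 8.03 ± 0.68 in WT (SD, n = 2 each), a log2 change of 1.13 or 2.19-fold (SE 0.49, interval -0.062 to 2.32, limma adjusted p = 0.771). Of all genes 1.19% were at least 2-fold higher with no overlap between the groups. The change was 1.28 between the female arrays and 0.98 between the male arrays, and leaving out Ncstn KO replicate 1 gave 0.50 and Ncstn KO replicate 2 gave 1.76. Leaving out WT replicate 1 gave 0.65 and WT replicate 2 gave 1.61.

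**Figure D3:**
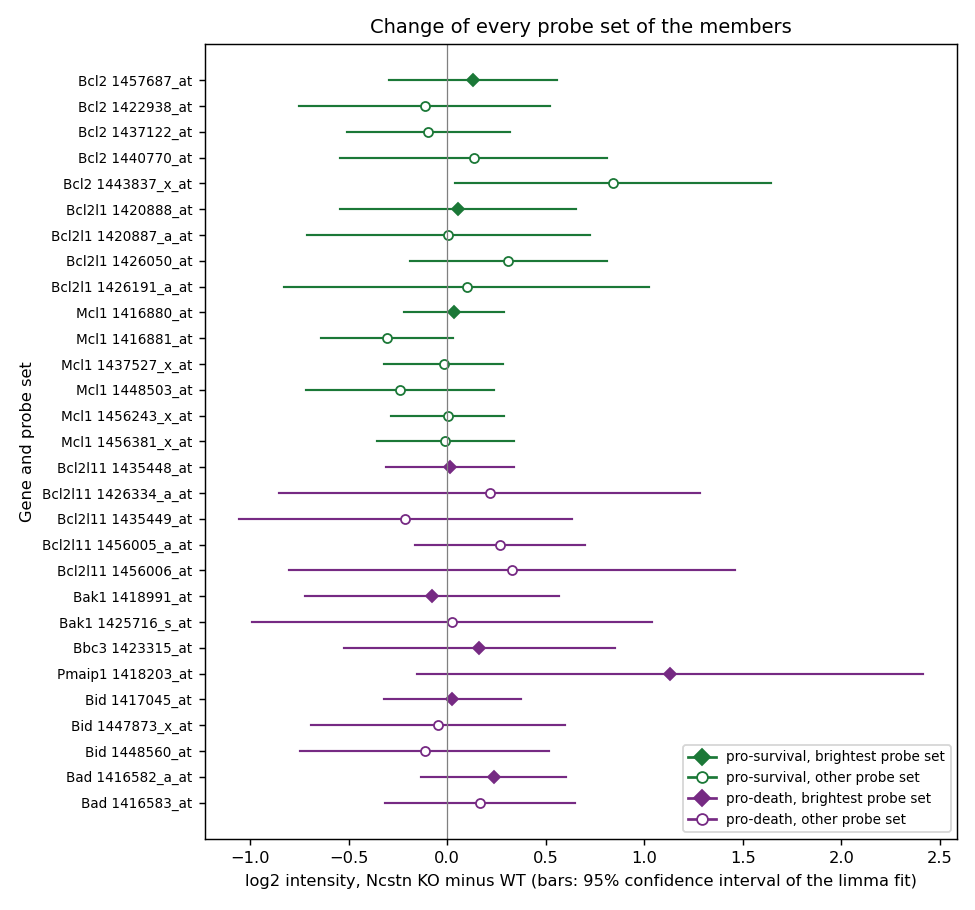
Log2 change, Ncstn KO minus WT, of all 29 probe sets with the 95% confidence interval of the limma fit over all probe sets, pro-survival in green and pro-death in purple, with a filled diamond for the brightest probe set of each gene. The interval of 28 probe sets includes 0, and that of the dim Bcl2 probe set 1443837_x_at does not before adjustment.

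The contrast of the family was taken per array as the mean of the pro-survival genes minus the mean of the pro-death genes, each gene first centred on its own mean. It was -0.22 and 0.041 on Ncstn KO replicates 1 and 2, against 0.34 and -0.16 on WT replicates 1 and 2. The groups overlapped, with a mean difference of -0.18 and an SD of 0.18 in Ncstn KO and 0.35 in WT, and no test was made of it. The difference rested on Pmaip1: without it the values were -0.047 and 0.048 in Ncstn KO, against 0.19 and -0.19 in WT, and the mean difference was 0.0011. It was 0.073 without WT replicate 1 and -0.42 without WT replicate 2.

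**Figure D4:**
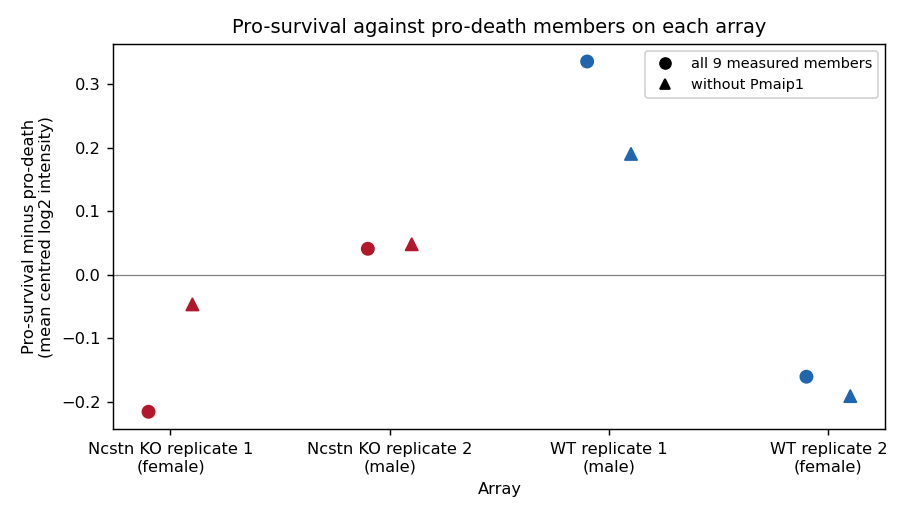
Mean centred log2 intensity of the pro-survival members minus that of the pro-death members on each array, with Ncstn KO in red and WT in blue, for all 9 measured members (circles) and without Pmaip1 (triangles). The genotypes overlap, and both female arrays lie below both male arrays with either set of members.

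The arrays of female and male mice did not overlap for 6 of the 9 members, a pattern read from the values, where those of the genotypes did not overlap for 2. The same shares over all genes were 40.5% by sex and 34.0% by genotype. In each genotype the female array was higher than the male array for 6 of 6 pro-death genes and lower for 0, where 39.8% of all genes were higher in both. Both female arrays lay above both male arrays for 4 of the 6 (Bcl2l11, Bak1, Bbc3 and Bid) and for 1 of 3 pro-survival genes (Bcl2), against 29.0% of all genes. Mcl1 was the member with both female arrays below both male arrays, which 11.5% of all genes showed. With 1 female and 1 male mouse in each genotype, sex cannot be told apart from differences between single mice.

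In a limma fit with genotype and sex, 0 of 9 members passed for sex over all genes, where 4 of 18193 genes did (0.0220%). Unadjusted p-values were under 0.05 for 3 members, against 8.58% of all genes. Pmaip1 was higher in females by 1.11 (SE 0.19, limma adjusted p = 0.574), with a female minus male difference of 1.25 within Ncstn KO and 0.96 within WT. Bak1 was higher by 0.50 (SE 0.13, limma adjusted p = 0.574), with 1238 and 1387 on the female arrays of Ncstn KO and WT, against 926 and 921 on the male arrays. Its second probe set was higher by 0.75 (SE 0.26), so that both Bak1 probe sets separated the sexes. Mcl1 was lower by a log2 difference of -0.18 (SE 0.060, limma adjusted p = 0.574), and in both genotypes the female array was below the male array on 6 of 6 Mcl1 probe sets, where 22.2% of all probe sets showed this. The probe sets of a gene share its transcripts and are not independent. Bbc3 (0.33, SE 0.21), Bcl2 (0.25, SE 0.13), Bid (0.22, SE 0.094), Bad (0.19, SE 0.11) and Bcl2l11 (0.13, SE 0.11) had unadjusted p-values above 0.05, as had Bcl2l1, which differed by 0.36 within Ncstn KO and -0.27 within WT. The signs of all 9 members held under quantile normalization, centring on array medians and scaling to the hybridization controls, although centring brought the Mcl1 difference to -0.092.

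**Figure D5:**
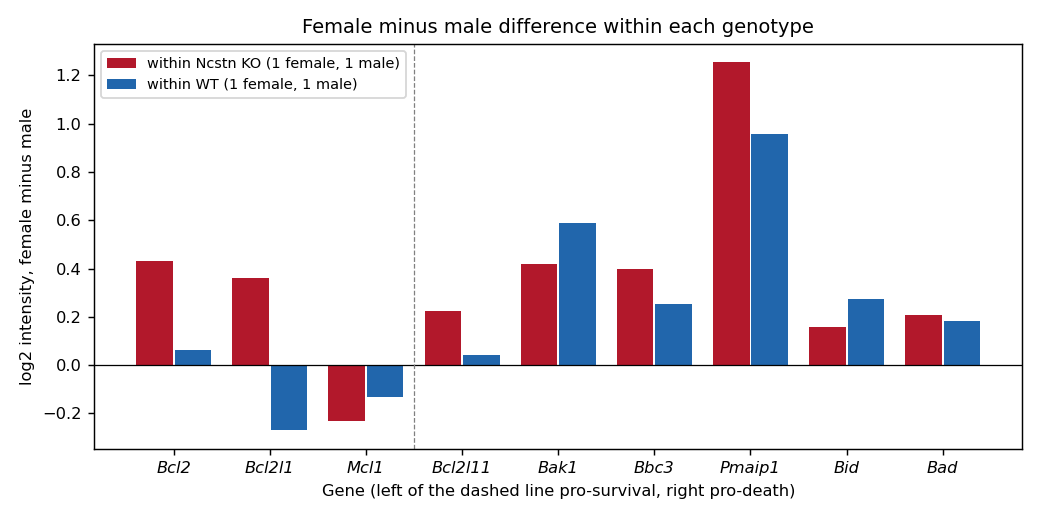
Female minus male difference in log2 intensity within Ncstn KO (red bars) and within WT (blue bars) for each measured member, each bar the difference of 2 arrays. Bars of the 6 pro-death genes point upward in both genotypes, those of Mcl1 downward in both, and those of Bcl2l1 in opposite directions.

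Whether the genotype difference depended on sex was not tested, because sex cannot be told apart from differences between single mice. The difference between the genotypes was read within each sex. It had opposite signs in the female and the male pair of arrays for 6 members, Bcl2, Bcl2l1, Mcl1, Bcl2l11, Bak1 and Bid, as for 44.3% of all genes. Pmaip1, Bad and Bbc3 were higher in Ncstn KO in both pairs, by 0.25 and 0.23 for Bad and by 0.24 and 0.089 for Bbc3 in the female and the male pair.

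Other measures separated the sexes as well. The median intensity was 71.6 and 75.0 on the female arrays of Ncstn KO and WT, against 79.2 and 76.7 on the male arrays, and the 3′ minus 5′ log2 difference of the Gapdh control was 0.69 and 0.65 against 0.77 and 0.71. That of the actin control overlapped, at 1.02 and 0.79 on the female arrays against 0.94 and 0.89 on the male arrays. Of 11 measured markers of mature neutrophils and monocytes, 5 had both female arrays below both male arrays, where 11.5% of all genes had, with summed intensities of 44503 and 40198 on the female arrays of Ncstn KO and WT against 57060 and 49072 on the male arrays. Itgam and Cd14 were below the median level of all genes. The same held for 3 of 6 LSK markers, with sums of 23899 and 22219 on the female arrays against 25960 and 24619 on the male arrays. It held for 3 of 8 B cell markers, with sums of 3873 and 5073 against 8473 and 5140, and 4 of the 8 were below the median level. In the apoptosis pathway it held for 4 of 5 inhibitors of apoptosis, 2 of 11 regulators of the family and 1 of 7 death receptor genes. Both female arrays lay above both male arrays for 5 of 9 apoptosome and caspase genes and 3 of 7 death receptor genes. They also did for 2 of 6 other pro-death genes, 1 of 2 other pro-survival genes (the dim Bcl2l10) and 2 of 11 regulators, against 29.0% of all genes. Among the remaining marker lists they did for 2 of 7 T and NK cell, 1 of 4 erythroid and 1 of 4 megakaryocyte markers. Of the 7 T and NK cell markers 5 were below the median level. Of 8 granulocyte-macrophage progenitor and 4 basophil and mast cell markers 0 separated the sexes in either direction. The part of these measures in the sex difference was not tested. In RNA from sorted bulk cells, fewer cells of a type and less RNA per cell cannot be told apart.

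No marker of another cell type passed the test between the genotypes in the limma fit. Their levels are given beside Pmaip1 and Bad, the 2 members whose genotypes did not overlap in the deposited values. Both Ncstn KO arrays lay above both WT arrays for 7 of 8 measured granulocyte-macrophage progenitor markers, where 21.3% of all genes did. Their summed intensities were 48779 and 47264 in Ncstn KO against 32641 and 34092 in WT, and 0 were below the median level of all genes. For basophil and mast cell markers this held for 4 of 4, with sums of 4525 and 3888 against 1778 and 1866, Ms4a2 being below that median. For megakaryocyte markers it held for 3 of 4, with sums of 3033 and 2850 against 1255 and 2220, Gp5 being below it. Markers of mature neutrophils and monocytes split: 5 of 11, namely F13a1, Ccr2, Cxcr2, Cd14 and Itgam, lay above without overlap, with log2 changes between 1.07 and 1.64, and 1, Csf3r (-0.28), below. The sums of that list overlapped, at 44503 and 57060 in Ncstn KO against 49072 and 40198 in WT. Of 4 erythroid markers 2, Alas2 (-1.30) and Slc4a1 (-1.05), were lower on each Ncstn KO array than on either WT array, as were 12.8% of all genes, and 1, Epor (0.57), above, with sums of 1094 and 866 in Ncstn KO against 1520 and 1050 in WT. Of 7 T and NK cell markers 3, Gzma (-2.13), Cd3d (-0.38) and Cd3e (-0.36), lay below and 1, Cd4 (0.59), above. Gzma, Cd3d and Cd3e were below the median level of all genes. The sums of that list were 7373 and 7250 against 7588 and 7552. Most of each sum was Nkg7 (-0.030), at 6765 and 6443 against 6910 and 6573. For B cell markers 2 of 8, Pax5 (0.39) and Cd22 (0.30), lay above and 1, Ms4a1 (-2.12), below. Pax5, Cd22 and Ms4a1 were below the median level of all genes. For LSK markers 1 of 6, Slamf1 (0.83), lay above and 1, Cd34 (-0.033), below. The part of these cells in the values of Pmaip1 and Bad was not tested.

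The wider apoptosis pathway was described by 6 lists, in which 0 genes passed in the limma fit in either direction. An unadjusted limma p under 0.05 was found for 1 of 6 other pro-death genes, Bcl2l14, and 1 of 11 regulators, Pim1. The other lists had 0 such genes, and 6.80% of all genes had such a p. Among 6 other measured pro-death genes of the family 3 were above and 3 below WT, with a median of 0.13. Bcl2l14, a family member whose role in death is debated, had intensities of 269 and 235 on Ncstn KO replicates 1 and 2, against 131 and 127 on WT replicates 1 and 2. Its log2 change of 0.97 (SE 0.23, limma adjusted p = 0.428) exceeded the spread between mice of a genotype. Bcl2l14 was below the median level of all genes, and the mean of its 2 probe sets gave 0.71 (limma adjusted p = 0.594). Bnip3, a mitochondrial protein of hypoxia and mitophagy, gave 0.29 (SE 0.17), with both Ncstn KO arrays higher. The other measured pro-survival genes were Bcl2l2 (0.10, SE 0.21) and the dim Bcl2l10 (0.22, SE 0.25). The Bcl2a1 genes had no probe set of their own name.

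Downstream of the pore, 9 apoptosome and caspase genes had 5 above and 4 below WT (median 0.025). Cycs, the cytochrome c that the pore releases, had a change of -0.32 (SE 0.20) and the executioner Casp6 of 0.23 (SE 0.17, both Ncstn KO arrays higher). Of 5 inhibitors of apoptosis 3 were above and 2 below (median 0.063), with Birc3 at 0.38 (SE 0.24) and Birc5, survivin, at -0.083 (SE 0.084). In the death receptor pathway 4 were above and 3 below (median 0.011). The dim TRAIL receptor gene Tnfrsf10b had 56.8 and 32.7 on Ncstn KO replicates 1 and 2, against 82.0 and 59.5 on WT replicates 1 and 2 (-0.70, SE 0.35, limma adjusted p = 0.821). Tnfrsf1a, the receptor for tumour necrosis factor, gave 0.17 (SE 0.13). Of 11 regulators of the family 7 were above and 4 below (median 0.086). Pim1, a kinase that phosphorylates Bad, had 7660 and 8524 on Ncstn KO replicates 1 and 2, against 7037 and 7114 on WT replicates 1 and 2 (0.19, SE 0.077, limma adjusted p = 0.72), and E2f1, which can induce several BH3-only genes, gave -0.26 (SE 0.19). Pim1 has 2 probe sets, whose mean gave 0.53 (limma adjusted p = 0.959), and the one of larger SD gave 0.87 (limma adjusted p = 0.996). The size of several of these values depended on 1 array. Leaving out Ncstn KO replicate 1 gave -0.63 for Cycs, 0.74 for Birc3 and 0.53 for Bnip3. It also gave -1.09 for Tnfrsf10b, -0.49 for E2f1 and 0.060 for Tnfrsf1a. Leaving out Ncstn KO replicate 2 gave -0.011 for Cycs, 0.028 for Birc3 and 0.058 for Bnip3. It also gave -0.30 for Tnfrsf10b, -0.035 for E2f1, 0.27 for Tnfrsf1a and 0.11 for Pim1. Leaving out WT replicate 2 gave -0.21 for Cycs and -0.14 for E2f1.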

How the data were processed

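Per the submitters' processing notes, the deposited probe set intensities were made by the authors with RMA. The sources used here name neither its software nor its version. The values ran from 3.32 to 23643 on a linear scale, so log2 was taken. Per the labels' protocols, 5 ng of total RNA was amplified with a NuGEN Ovation system, which can favour 3′ ends, and labelled with biotin. Signal over background was not assessed, and 4 arrays limit the precision.

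After 64 control probe sets were left out, 45037 remained, of which 34945 named 1 gene in a platform annotation of GEO, 932 several and 9160 were unnamed here. The 18193 genes, and separately the probe sets, entered limma 3.58.1 (R 4.3.3) with genotype as the only term, a variance trend in eBayes and two-sided p-values adjusted by Benjamini-Hochberg, with 0.05 as threshold. The scripts were tested on simulated data. Sex was a second term in an added fit. Calls are limma's, and a change is log2 Ncstn KO minus WT. The members and lists were chosen with earlier results of these data known. Named outside the members were Ncstn and up to 2 genes per pathway list, by smallest unadjusted p, beside examples of the markers. Alternatives changed the scaling, block, probe set rule, level filter, pseudocount of 16, variance trend and arrays used. Same-numbered arrays of the groups correlated at -0.242 in their deviations over genes, so the numbers were not taken to pair them. Figures were drawn with matplotlib 3.10.9.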

Additional observations from a re-analysis of the deposited data

Results flagged for a closer look

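For 6 of the 9 members the difference between Ncstn KO and WT had opposite signs in the female and the male pair of arrays, as for 44.3% of all genes. Each pair holds 2 arrays, so the difference between the pairs was not tested. The female pair exceeded the male pair in log2 change by 0.37 for Bcl2 (0.32 and -0.052), by 0.63 for Bcl2l1 (0.37 and -0.26) and by 0.18 for Bcl2l11 (0.11 and -0.076). It was below the male pair, with differences of -0.10 for Mcl1 (-0.017 and 0.084), -0.17 for Bak1 (-0.16 and 0.0077) and -0.12 for Bid (-0.032 and 0.086). Pmaip1, Bbc3 and Bad were higher in Ncstn KO in both pairs.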

How the results depend on the processing

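Under all alternatives run, 0 members and 0 of their probe sets passed, whichever array was left out. The count of all genes was 3 after quantile normalization, 62 after centring on array medians, 2 among genes above the median level, and 0 to 27 without 1 array. Pmaip1 and Bad stayed above WT throughout (without 1 array 0.50 to 1.76 and 0.13 to 0.34). With the arrays scaled to the hybridization controls, however, Bad fell to 0.042, and Pmaip1 to 0.94. Scaling to the hybridization controls brought Bnip3 to 0.099, Casp6 to 0.034, Birc3 to 0.19, Birc5 to -0.28, Cycs to -0.51, E2f1 to -0.46 and Bcl2l10 to 0.027, and turned Bcl2 (-0.063), Bcl2l1 (-0.14), Mcl1 (-0.16), Bcl2l11 (-0.18), Bbc3 (-0.032), Bid (-0.17), Bcl2l2 (-0.094), Tnfrsf1a (-0.030) and Pim1 (-0.0039), and the medians of pro-survival (-0.14) and pro-death members (-0.10). The mean of all probe sets brought Birc3 to 0.22 and Tnfrsf10b to -0.39 and turned Mcl1 (-0.089) and Bid (-0.045), and the probe set of largest SD turned Mcl1 (-0.24), Bak1 (0.025) and Bid (-0.11). Within the female pair Mcl1 (-0.017) and Bid (-0.032) turned, and within the male pair Bcl2 (-0.052), Bcl2l1 (-0.26), Bcl2l11 (-0.076) and Bak1 (0.0077). Without 1 array the medians ran from -0.083 to 0.24 for pro-survival and -0.044 to 0.25 for pro-death members, and their contrast from -0.42 to 0.073 (0.0011 without Pmaip1, chosen after seeing the data). The ranges without 1 array were -0.083 to 0.35 for Bcl2, -0.12 to 0.24 for Bcl2l1, -0.083 to 0.15 for Mcl1, -0.097 to 0.13 for Bcl2l11, -0.37 to 0.22 for Bak1, -0.037 to 0.36 for Bbc3, -0.11 to 0.16 for Bid, -0.043 to 0.49 for Bcl2l10, -0.073 to 0.28 for Bcl2l2 and -0.17 to 0.0031 for Birc5. For sex, Bcl2l1 turned within WT (-0.27). The cause was not tested for any of these. With the replicate block 0 genes and 0 members passed, as with sex as a block, which is also the crossed pairing of the numbers. Alternatives that average or re-choose probe sets were not run on single probe sets. Dim probe sets carry an unknown error because signal over background was not assessed.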
